A study of Mus musculus with 12 samples.

Results

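Stromal cells that lack an Rspo3-GFP reporter were compared between the colon and the small intestine of the mouse. The members are the libraries labelled Rspo3-GFP negative, 3 of colonic and 3 of small intestinal stroma, which are 6 of the 12 libraries analysed here; the other 6 are the GFP-positive cells of the same tissues and enter only where stated. All cells were sorted as negative for EPCAM, an epithelial surface protein, and for CD45, the surface protein of leukocytes, and then split by GFP. In every group the mice carried the Rspo3-GFP transgene on a C57Bl6 background, were aged 8 to 12 weeks, and have no treatment named. GFP-negative cells are thus those without visible reporter for Rspo3, whose secreted product enhances Wnt signalling; the labels do not give the construct, and they do not say whether the replicates came from separate animals, so p-values measure the spread between these libraries, which may be technical. The question the comparison addresses is how this stroma differs by gut region.

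As background, gut mesenchyme is patterned along the length of the tube by Hox genes, which lie in 4 chromosomal clusters and are switched on in an order that follows their position: low paralog numbers anteriorly, high numbers posteriorly. The stroma under the epithelium includes fibroblasts that secrete BMP ligands, which hold back stem cell activity, and Wnt, R-spondin and FGF signals, which promote epithelial growth. Fibroblasts also lay down the collagens, glycoproteins and elastic fibres of the mucosa, and in the small intestine they store and activate retinoids.

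Expression was measured by sequencing of total RNA after removal of ribosomal RNA. The small intestinal libraries held 7966684, 9708867 and 6489835 counts (replicates 1 to 3) and the colonic ones 6562662, 8003415 and 7299851. Levels are given as CPM (counts relative to library size, after TMM scaling), which suit comparison of a gene between libraries and not of different genes with each other. Rspo3 itself measured 8.78, 13.7 and 4.5 CPM in the small intestinal and 2.49, 6.51 and 2.28 CPM in the colonic GFP-negative libraries, against a mean of 193 and 132 CPM in GFP-positive cells; its own difference between regions was not called (adjusted p = 0.123).

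Some libraries stood apart from their group, and the makeup of the sorted cells differed between regions. Small intestinal replicate 3 had 8.23% of its counts in immunoglobulin genes, against 0.137% to 0.171% in the other small intestinal and 0.0870% to 0.310% in the colonic libraries, and Ptprc, which encodes CD45, measured 304 CPM in it against 1.78 to 8.23 CPM in the rest, which goes against the CD45-negative sort. Small intestinal replicate 2 was nearer to the colon than its group in fibroblast markers: the summed level of 16 general fibroblast markers was 12857, 32872 and 14661 CPM in the small intestine and 33532, 37347 and 34314 CPM in the colon. Summed blood endothelial markers (14 genes) ran the other way, at 3589, 2577 and 1007 CPM in the small intestine and 1058, 462 and 306 CPM in the colon, where colon replicate 1 overlapped small intestinal replicate 3. Enteric glia markers (12 tested genes) were at 643, 322 and 342 CPM against 203, 137 and 113 CPM. The summed level of 16 pan-epithelial markers was 668, 325 and 986 CPM in the small intestine and 3182, 1321 and 2718 CPM in the colon, and Epcam itself was at 43.3, 18.5 and 90.5 CPM against 175, 75.7 and 182 CPM. In bulk libraries of this kind, fewer cells of a type and less RNA per cell cannot be told apart. Protein-coding genes took 65.9% to 76.1% of counts in the small intestine and 80.2% to 82.5% in the colon, and mitochondrial ribosomal RNA 9.73% to 12.7% and 6.26% to 9.04%; the part of these differences in the results was not tested.

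**Figure D1:**
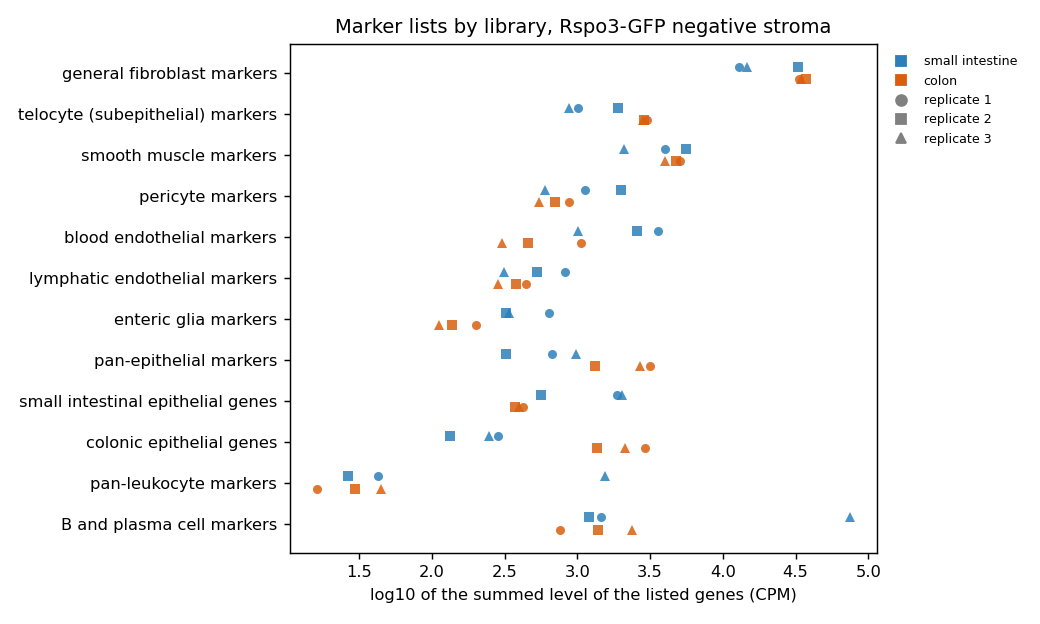
Summed level of 12 marker lists (log10 of CPM, horizontal) in each GFP-negative library, with small intestine in blue and colon in orange and replicates 1 to 3 as circle, square and triangle. Fibroblast, telocyte and epithelial sums lay higher in the colon, apart from the small intestinal epithelial list. Glial sums lay lower, and blood and lymphatic endothelial sums lay lower on average, with single libraries of the regions overlapping. Small intestinal replicate 3 stands far to the right for leukocyte and B and plasma cell markers.

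Of 16757 genes tested, 706 passed an adjusted p of 0.05 (edgeR quasi-likelihood test, Benjamini-Hochberg), which is 4.21% of the genes. In the colon 369 were higher (2.2%) and 337 were lower (2.01%), so 52.3% of calls were higher in the colon. The libraries of the regions did not overlap for 705 of the 706, while 22.6% of all tested genes showed no overlap. The count moved strongly with single libraries: it was 187 without colon replicate 3, 234 without colon replicate 2, 388 without small intestinal replicate 1, 396 without colon replicate 1 and 1229 without small intestinal replicate 2. Without small intestinal replicate 3 it was 713, with 294 higher and 419 lower, and 487 of the 713 were among the 706. Of the 706, 162 kept their call in all 6 fits that each left out 1 GFP-negative library, and these fits are called the leave-one-out fits below. On the deposited log2(TPM + 1) scale, where the median difference over all genes was 0.19 and not -0.06 as with counts, 1509 genes were called and 87.3% of them were higher in the colon, so the split between directions depends on the scale. The counts of list members below stand against these shares of all tested genes, 2.2% higher and 2.01% lower. The limma-voom fit gave 60.0% higher.

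**Figure D2:**
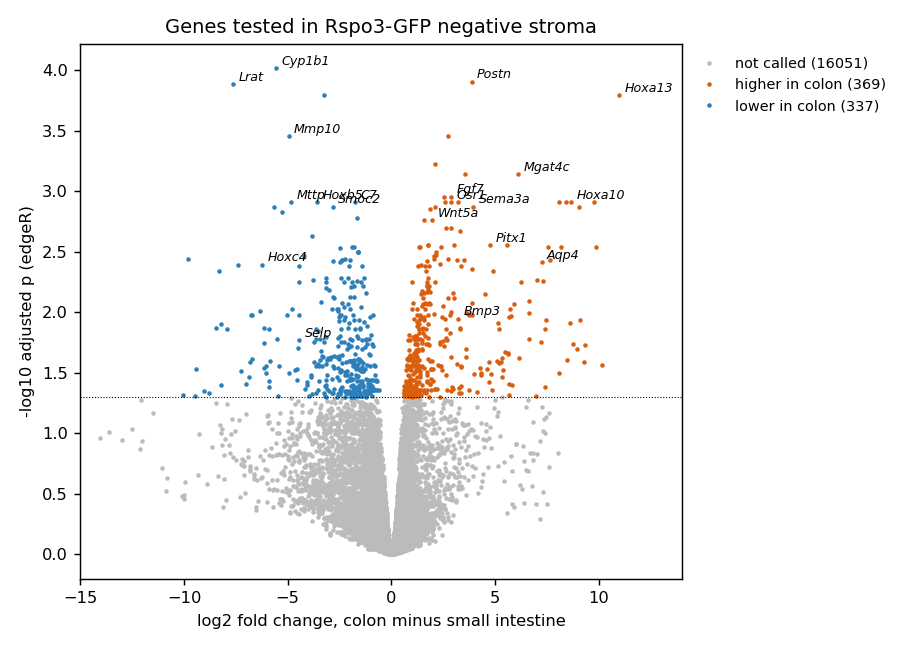
Log2 fold change (colon minus small intestine, horizontal) against -log10 of the edgeR adjusted p (vertical) for the 16757 genes tested in GFP-negative stroma, with the dotted line at 0.05. The 369 higher genes are orange and the 337 lower genes blue; Hoxa13, Postn, Cyp1b1 and Lrat lie near the top.

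Hox genes divided by paralog number. Of 11 tested members of paralog groups 9 to 13, 8 rose in the colon and none fell; of 21 tested members of groups 1 to 8, 11 fell and none rose, against 2.2% and 2.01% of all genes. The median log2 difference was -2.47 for groups 1 to 8 and 7.19 for groups 9 to 13, or 5.68 with genes at 0 in the small intestine set to their lower bound, while the median of all genes was -0.06. The summed level of groups 1 to 8 was 190, 241 and 125 CPM in the small intestine and 55.9, 52.9 and 40.4 CPM in the colon; that of groups 9 to 13 was 5.41, 3.86 and 0.965 CPM against 136, 132 and 140 CPM. Leaving out colon replicate 2 or 3 reduced the lower calls to 7, and leaving out colon replicate 1, 2 or 3 reduced the higher calls to 5, 4 and 3.

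The promoters of Hoxa13 and Hoxd11, which mark the posterior side of this split, of Hoxa5 on the anterior side and of Lrat, the retinoid gene with the largest fall, are shown as the 150 bases before the RefSeq transcription start (GRCm38.p6), read 5′ to 3′ on the strand of the gene: chr6:52260881-52261030 (minus strand) for Hoxa13, chr2:74679408-74679557 (plus) for Hoxd11, chr6:52204588-52204737 (minus) for Hoxa5 and chr3:82903975-82904124 (minus) for Lrat. Capitals mark matches to TTTATG, a core bound by homeobox factors of the hindgut such as CDX2, or, for factors of the GATA family, to AGATAA, on either strand.
Hoxa13: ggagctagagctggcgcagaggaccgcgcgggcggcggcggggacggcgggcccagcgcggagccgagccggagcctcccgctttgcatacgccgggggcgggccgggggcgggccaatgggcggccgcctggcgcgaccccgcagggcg
Hoxd11: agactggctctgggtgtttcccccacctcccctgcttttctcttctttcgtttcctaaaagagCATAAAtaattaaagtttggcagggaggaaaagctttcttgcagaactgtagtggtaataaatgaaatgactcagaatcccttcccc
Hoxa5: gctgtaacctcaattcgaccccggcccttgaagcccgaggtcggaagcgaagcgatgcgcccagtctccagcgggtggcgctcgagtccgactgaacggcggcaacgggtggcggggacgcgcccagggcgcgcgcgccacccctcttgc
Lrat: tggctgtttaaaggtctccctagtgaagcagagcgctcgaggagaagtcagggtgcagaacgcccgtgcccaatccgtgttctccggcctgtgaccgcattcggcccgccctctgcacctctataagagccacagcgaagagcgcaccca

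The Hoxa13 stretch is 82.7% G and C, Hoxa5 71.3%, Lrat 60.7% and the Hoxd11 stretch 43.3%. Among these stretches that of Hoxd11 holds a match, TTTATG on the opposite strand. RefSeq gives Hoxd11 a second start, whose window (chr2:74682173-74682322) holds no match; the window shown is the one at the start of the annotated gene. RefSeq windows of 300 bases (250 before to 50 after a start) were found for 7 of the 8 called genes of groups 9 to 13, with TTTATG in 1 of their 9 windows, and for 5 of the 11 called genes of groups 1 to 8, with TTTATG in 0 of 5. Over all 32851 windows, 11.9% hold TTTATG and 11.2% hold AGATAA. These matches describe letters in a window and are no sites.

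Hoxa13, a marker of the hindgut (chromosome 6, 52257694 to 52260880, minus strand), had no count in any small intestinal library and 27.3, 28.8 and 31.0 CPM in the colon. All colonic libraries were close together, and the level was at least 234-fold higher (taking 3 counts in the whole small intestinal group as the limit of a count of 0; adjusted p = 1.62e-04). Hoxd11 (chromosome 2, 74679557 to 74687016, plus strand) was likewise at 0 in the small intestine and at 13.8, 12.8 and 11.4 CPM in the colon, at least 101-fold higher (adjusted p = 0.00124). Hoxa10 had 1 count over the small intestinal libraries and 20.7, 25.0 and 22.2 CPM in the colon, a ratio of 550 with a 95% counting interval of 98.2 to 21749.5 (adjusted p = 0.00124). These 3 held in every leave-one-out fit. Hoxa11os, a noncoding RNA antisense to Hoxa11, had 1 small intestinal count and 11.9, 18.2 and 15.3 CPM in the colon; the sources used here do not say whether reads were counted by strand, so Hoxa11 and Hoxa11os cannot be separated firmly. It was the only called member of 6 tested Hox cluster noncoding RNAs, and Hottip, at 0 in the small intestine and 3.08, 1.26 and 2.79 CPM in the colon, was not called (adjusted p = 0.0765).

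The other posterior members were called less firmly. Hoxd13, the most posterior gene of its cluster, was at 0 in the small intestine and 8.21, 7.31 and 12.5 CPM in the colon, at least 75.0-fold higher (adjusted p = 0.0186), and lost its call without colon replicate 2 or 3 (up to 0.0680). Hoxb13 was at 0 against 14.4, 1.83 and 10.6 CPM, at least 67.8-fold higher, with colon replicate 2 far below the others, and lost its call without small intestinal replicate 1 or colon replicate 1 or 3 (adjusted p up to 0.0808) and under limma-voom and the TPM scale. Hoxd10 rose from 0.601, 0 and 0 to 11.4, 10.2 and 10.6 CPM, and lost its call without colon replicate 2 or 3 (up to 0.0698). Hoxa11 rose from 1.68, 0 and 0 to 18.6, 26.0 and 24.7 CPM and lost its call without any 1 of the colon replicates (up to 0.0959). Hoxa9 rose from 0, 0 and 0.643 to 9.39, 9.14 and 11.9 CPM, and lost its call in every leave-one-out fit but that without small intestinal replicate 3 (up to 0.131). Neither Hoxa9 nor Hoxa11 was called with no filter on low counts, nor Hoxa11 with only the GFP-negative libraries. Hoxb9, Hoxd9 and Hoxc10 were not called, with log2 differences of 0.59, 2.67 and a small intestine at 0 with 3.67, 2.63 and 0 CPM in the colon.

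Among the anterior members, Hoxa5 (chromosome 6, 52201754 to 52204587, minus strand) fell from 23.8, 26.4 and 16.7 CPM to 5.13, 3.31 and 3.67 CPM, by 2.47 ± 0.37 on the log2 scale (SE, n = 3 per group; adjusted p = 0.00387). Hoxb5 fell from 12.7, 11.2 and 8.52 to 0.880, 1.03 and 0.760 CPM, a log2 change of -3.58 ± 0.42 (adjusted p = 0.00124). Its neighbours Hoxb3 and Hoxb4 changed by -3.17 and -3.01, and Hoxa2 by -4.21. Hoxc4 went from 7.45, 16.8 and 8.04 CPM to 3 counts over the colonic libraries, a ratio of 88.6 (95% counting interval 30 to 432; adjusted p = 0.00404). These 6 genes kept their calls in every leave-one-out fit, although Hoxb4 lost it on the TPM scale. Hoxa3, Hoxa4, Hoxb2, Hoxc5 and Hoxc6 were also called, with log2 differences from -4.96 to -1.86. Hoxb2 lost its call without colon replicate 3 (adjusted p = 0.0525), Hoxa4 without colon replicate 2 or 3 (up to 0.101) and Hoxc6 without colon replicate 1 or 2 (up to 0.0970). Hoxc5 lost it without small intestinal replicate 2 or colon replicate 2 or 3 (up to 0.154), and Hoxa3 without small intestinal replicate 1 or any 1 of the colon replicates (up to 0.0932). The middle of the clusters showed small differences: Hoxa7 had 0.36, Hoxd8 0.27, Hoxa6 -0.17 and Hoxd4 -0.36, none of them called. Hoxa3 and Hoxc5 also lost their calls under limma-voom and on the TPM scale, Hoxc6 under limma-voom, and Hoxa3 and Hoxc6 with only the GFP-negative libraries. In the annotation Hoxa3 spans Hoxa5, and Hoxc5 spans Hoxc6, so how the authors' counting divided these pairs is uncertain.

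**Figure D3:**
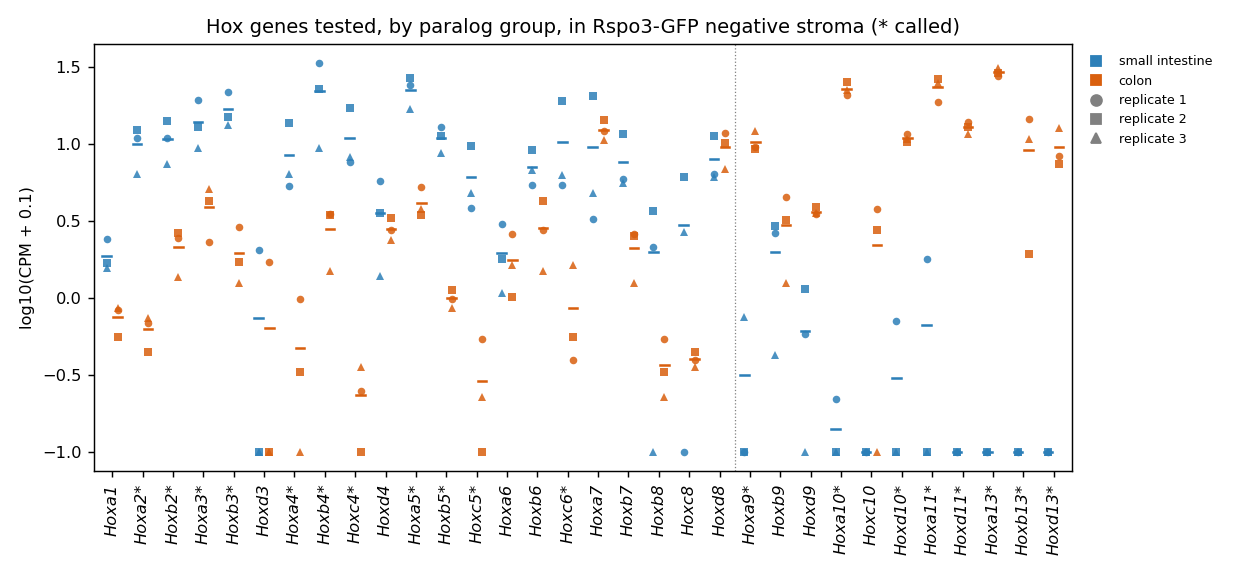
CPM of the 32 tested Hox genes on a log10 scale after adding 0.1 (vertical), ordered by paralog number, for each GFP-negative library; horizontal bars are the mean CPM of each group, the dotted line separates groups 1 to 8 from 9 to 13, and stars mark called genes. For most genes blue small intestinal points lie above the orange colonic ones at the left, and the order turns at the right, where many small intestinal points sit at the bottom, which is 0 CPM.

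Beyond the Hox clusters, 5 of 38 tested gut mesenchyme transcription factors rose and 1 fell in the colon (median log2 difference 0.22), and 2 held in every leave-one-out fit. Pitx1, a hindlimb and hindgut homeobox factor (chromosome 13, 55825051 to 55836192, minus strand), rose from 4.21, 9.30 and 0.482 to 124, 128 and 141 CPM, by 4.76 ± 0.61 (adjusted p = 0.00280). The groups did not overlap, and the colonic libraries were close together. Osr1, a zinc finger factor of mesenchymal progenitors, rose from 11.3, 17.9 and 10.6 to 66.7, 98.2 and 130 CPM, by 2.88 ± 0.34 (adjusted p = 0.00124). Isl1, a LIM homeobox factor, rose from 0.601, 0 and 1.93 to 18.8, 22.7 and 26.9 CPM. Isl1 lost its call without small intestinal replicate 1 or any 1 of the colon replicates (adjusted p up to 0.129), and Twist1, at 3.37, without small intestinal replicate 1 or colon replicate 2 or 3 (up to 0.0981). Hand2, a bHLH factor of visceral mesenchyme and enteric neurons, fell from 51.7, 31.0 and 19.3 to 15.1, 11.5 and 7.47 CPM; it lost its call without small intestinal replicate 1 or any 1 of the colon replicates (up to 0.194). Isl1 was also not called with no filter, Twist1 and Hand2 with only the GFP-negative libraries, and Hand2 on the TPM scale. RefSeq windows were matched for 3 of the 6 called factors. AGATAA was in 2 of these 3, those of Hand2 and Isl1, against 11.2% of all windows, and TTTATG in 0 of 3. In the windows of the called Hox genes AGATAA was in 0 of 5 (groups 1 to 8) and 0 of 9 (groups 9 to 13). These matches are likewise no sites. Factors shared along the gut were not called: Foxf1, a hedgehog target, had 0.90 (adjusted p = 0.295), Nkx2-3 -0.59 (0.4), Meis2 0.11 (0.882) and Foxl1, the telocyte factor, 1.75 (0.275). Sall1, a zinc finger factor outside this list, rose from 1.20, 3.66 and 0 to 54.3, 61.6 and 72.7 CPM (adjusted p = 0.0137), and lost its call without small intestinal replicate 1 or colon replicate 2 or 3 (up to 0.0655).

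Of 9 tested BMP ligands, 6 rose in the colon and none fell (4 to 7 in the leave-one-out fits), with a median log2 difference of 1.72 against -0.06 for all genes. Bmp3 (chromosome 5, 98854415 to 98884396, plus strand) rose from 12.1, 24.6 and 18.8 to 170, 173 and 175 CPM, by 3.22 ± 0.56 (adjusted p = 0.0113). The colonic libraries were nearly level with each other and far above the small intestinal ones. Bmp4 rose from 94.3, 195 and 126 to 422, 472 and 473 CPM, by 1.72 ± 0.28 (adjusted p = 0.00563). Bmp2 rose by 2.04 ± 0.36 (adjusted p = 0.0104) and Bmp6 by 1.70 ± 0.29 (0.00848), and these 4 held in every leave-one-out fit. Bmp5 went from 50.4, 124 and 63.2 to 392, 404 and 423 CPM and lost its call without small intestinal replicate 1 or colon replicate 2 or 3 (up to 0.0670). Bmp7 went from 10.8, 33.0 and 26.5 to 119, 106 and 110 CPM and lost its call without small intestinal replicate 1 or any 1 of the colon replicates (up to 0.0936). In each of these 6 genes the small intestinal library richest in fibroblast markers, replicate 2, was the highest of its group and still below every colonic library; the summed fibroblast markers were 1.74-fold higher in the colon, and their part in the result was not tested.

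Of 13 extracellular antagonists and modulators of BMP, 2 rose and none fell (1 to 5 in the leave-one-out fits, 5 without small intestinal replicate 2, and 1 without small intestinal replicate 1 or colon replicate 2 or 3). Twsg1, a secreted BMP-binding protein, rose from 93.8, 149 and 101 to 288, 284 and 270 CPM, by 1.29 ± 0.20 (adjusted p = 0.00418). Fstl1, a follistatin-like protein, rose from 332, 587 and 378 to 968, 1129 and 1073 CPM and lost its call without small intestinal replicate 1 or colon replicate 2 or 3 (up to 0.0831). Grem1, the crypt-base antagonist, measured 43.6, 76.4 and 31.4 against 79.4, 88.1 and 113 CPM and was not called (0.89, adjusted p = 0.218). Of 8 BMP target genes 1 rose: Smad9, a receptor-activated SMAD, from 10.1, 8.46 and 9.33 to 22.1, 24.9 and 30.5 CPM (adjusted p = 0.00888; 0.0585 without colon replicate 3).

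Of 10 tested Wnt ligands 5 rose and none fell (median 0.97; 2 to 5 in the leave-one-out fits, with 2 without small intestinal replicate 1 or colon replicate 2 or 3, and 3 without small intestinal replicate 3 or colon replicate 1). Wnt5a, a mainly non-canonical ligand (chromosome 14, 28504750 to 28527448, plus strand), rose from 29.7, 41.8 and 30.7 to 133, 129 and 137 CPM, by 1.96 ± 0.25 (adjusted p = 0.00174). Its relative Wnt5b rose from 2.04, 4.70 and 4.34 to 28.7, 32.7 and 30.1 CPM, by 3.04 ± 0.52 (adjusted p = 0.00767). Both held in every leave-one-out fit, and no colonic library overlapped a small intestinal one. Wnt4 rose from 16.7, 37.6 and 14.8 to 75.1, 52.5 and 62.8 CPM (adjusted p = 0.0276), and lost its call in all leave-one-out fits but that without small intestinal replicate 2 (up to 0.0957). Wnt2, a canonical ligand, was low in both, at 0.842, 0.940 and 0.643 against 5.13, 5.94 and 4.18 CPM, and lost its call in each of the 6 leave-one-out fits (up to 0.105). Wnt10b had 1 count over the small intestinal libraries and 1.47, 2.86 and 4.31 CPM in the colon, a ratio of 70.9 (95% counting interval 12.3 to 2840), and lost its call without small intestinal replicate 1 or colon replicate 2 or 3 (up to 0.0965). Wnt2b, a canonical ligand, was not called (0.48, adjusted p = 0.573).

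The R-spondins did not follow the Wnt ligands. Rspo2 fell from 4.69, 7.83 and 1.93 to 0, 0.114 and 0.507 CPM, by 4.43 ± 0.80 (adjusted p = 0.0106; 0.0643 without colon replicate 2), and it was not called under limma-voom, on the TPM scale or with only the 6 GFP-negative libraries. It was the only called member of 7 tested R-spondins and receptors, and Rspo1 had a difference of 0.09. Secreted Wnt antagonists went both ways, 1 of 10 higher and 2 lower. Sfrp2 rose from 0.361, 0 and 2.09 to 15.4, 17.9 and 58.9 CPM, while Dkk2 fell from 25.2, 42.1 and 6.91 to 3.08, 4.91 and 1.52 CPM and Apcdd1 from 49.4, 141 and 39.9 to 23.2, 25.5 and 21 CPM. None of these 3 calls remained without colon replicate 1, 2 or 3 (adjusted p up to 0.138, 0.111 and 0.155) or with no filter on low counts, and those of Sfrp2 and Dkk2 were also lost without small intestinal replicate 1. Of 8 Wnt target genes 1 fell, the feedback inhibitor Nkd2 (-1.82; lost without small intestinal replicate 1 or any 1 of the colon replicates, up to 0.159).

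Of 7 tested FGF ligands 3 rose and none fell (2 to 3 in the leave-one-out fits). Fgf7, keratinocyte growth factor (chromosome 2, 126034658 to 126091185, plus strand), rose from 8.30, 3.45 and 6.59 to 52.5, 33.9 and 49.8 CPM, by 2.90 ± 0.32 (adjusted p = 0.00112). Fgf9 rose from 2.89, 4.70 and 4.5 to 27.7, 26.4 and 20.9 CPM, by 2.63 ± 0.34 (adjusted p = 0.00201). Every colonic library exceeded every small intestinal one for both. Fgf10, which acts on the same receptor isoform as Fgf7, rose from 6.85, 11.4 and 7.40 to 37.4, 47.2 and 46.7 CPM (adjusted p = 0.0181) and lost its call without small intestinal replicate 1 or colon replicate 2 or 3 (up to 0.0754). Fgf1 and Fgf18 were at 0.06 and -0.45.

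Of 24 other growth factors 2 rose and 2 fell. Hgf, the ligand of the Met receptor, rose from 25.8, 40.3 and 37.9 to 82.3, 83.5 and 123 CPM (adjusted p = 0.0178) and lost its call without small intestinal replicate 1 or colon replicate 3 (up to 0.0950). Csf1, the macrophage growth factor, rose by 1.12 (lost without colon replicate 2 or 3, up to 0.0680), while Pdgfa (-1.11) and midkine, Mdk (-1.78), fell and lost their calls in 5 and 4 leave-one-out fits (up to 0.178 without colon replicate 2, and 0.211 without colon replicate 3). Of 8 EGF family ligands 1 rose, Ereg, from 79.6, 119 and 55.6 to 295, 153 and 267 CPM (adjusted p = 0.0401), lost without small intestinal replicate 1 or 3 or colon replicate 1 or 3 (up to 0.129). Nrg1, from 29.2, 15.1 and 13.3 to 148, 57.8 and 94.5 CPM, was not called (adjusted p = 0.146). The TGF-beta family had 1 of 10 higher, the activin subunit Inhba (1.73; 4 calls lost of 6, up to 0.140 without colon replicate 3), the hedgehog list 1 of 12 higher, Hhip (1.81; 5 lost, up to 0.161 without colon replicate 2), and the Notch list 1 of 13 lower, Hey2 (-3.18; 4 lost, up to 0.172 without colon replicate 3). These counts ran from 0 to 5 in the leave-one-out fits, the 5 being hedgehog genes without small intestinal replicate 2 and Notch genes without small intestinal replicate 3. The median log2 differences of the TGF-beta, hedgehog and Notch lists were -0.57, 0.29 and -1.79. Of the 13 Notch genes 12 had a negative difference, most of them not called.

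**Figure D4:**
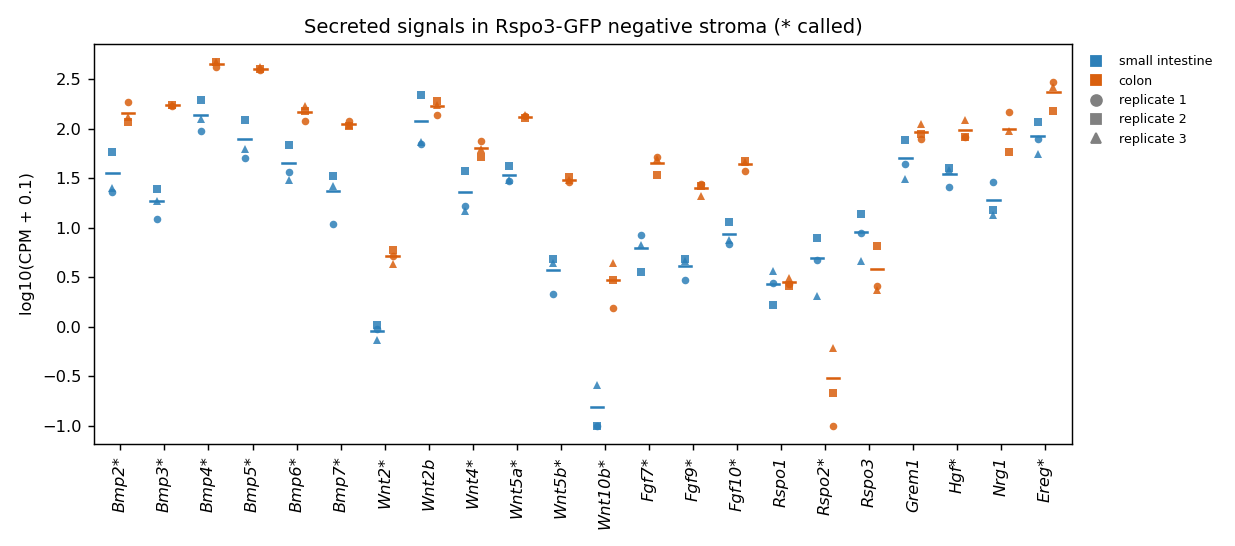
CPM of 22 secreted signals on a log10 scale after adding 0.1 (vertical) for each GFP-negative library, with bars at the mean CPM of each group and stars at called genes. The BMP ligands, Wnt5a, Wnt5b and the 3 called FGFs lie higher in the colon, Rspo2 lies lower, and Grem1, Nrg1, Rspo1, Rspo3 and Wnt2b are not called.

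Of 14 tested retinoid genes, 5 fell in the colon, 1 rose and 8 were not called (median -0.35); on the TPM scale 2 fell and 2 rose. Lrat, which esterifies retinol for storage (chromosome 3, 82892579 to 82903973, minus strand), fell from 221, 379 and 205 to 2.64, 1.03 and 0.507 CPM, a log2 change of -7.62 ± 0.59 (adjusted p = 1.32e-04). Its level was high in all small intestinal libraries and near 0 in all colonic ones. Aldh1a3, a retinaldehyde dehydrogenase that makes retinoic acid, fell from 287, 468 and 276 to 60.9, 50.4 and 84.5 CPM, by 2.40 ± 0.35 (adjusted p = 0.00370). Its relative Aldh1a2 fell from 99.4, 238 and 109 to 33.9, 36.2 and 41.3 CPM (adjusted p = 0.00936; 0.0526 without colon replicate 2). The retinoic acid receptor Rarb (-1.83) fell, and lost its call in 5 leave-one-out fits (up to 0.174 without colon replicate 3). Rbp4, the extracellular retinol carrier, went against the other called members, from 2.89, 6.06 and 4.82 to 42.7, 47.1 and 38.3 CPM, a rise of 3.21 ± 0.38 (adjusted p = 0.00124). The number of lower retinoid genes was 2 without colon replicate 2 and 3 without small intestinal replicate 1 or colon replicate 1 or 3, with Lrat and Aldh1a3 called throughout these fits. Cyp1b1, a cytochrome P450 that responds to the aryl hydrocarbon receptor and can also oxidise retinol, had the smallest adjusted p of all genes: it fell from 111, 137 and 60.9 to 2.05, 2.86 and 1.52 CPM, by 5.57 ± 0.41 (adjusted p = 9.69e-05).

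Of 28 collagens 6 rose and 1 fell, of 26 proteoglycans and matricellular proteins 5 rose and 1 fell, of 16 elastic fibre genes 5 rose, and of 16 laminins and basement membrane genes 3 rose and 1 fell, with medians of 0.45, 0.75, 0.87 and 0.21. Without small intestinal replicate 2, the fibroblast-rich library, the higher counts were 16, 15, 12 and 6; their lowest counts in other leave-one-out fits were 3, 3, 1 and 1. On the TPM scale they were 13, 16, 10 and 6. Summed fibroblast markers moved in the same direction. That sum includes Col1a1, Col1a2 and Col3a1 of the collagens, Dcn and Lum of the proteoglycans and Mfap5 of the elastic fibre genes. It is thus not separate from these lists, and its part in these counts was not tested.

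Periostin (Postn), a matricellular protein of fibroblasts near the epithelium (chromosome 3, 54361109 to 54391037, plus strand), rose from 216, 249 and 162 to 2855, 3013 and 3309 CPM, by 3.87 ± 0.31 (adjusted p = 1.25e-04). In small intestinal replicate 2, where the fibroblast sum was 32872 CPM against 33532 to 37347 CPM in the colon, Postn was at 249 CPM. Summed telocyte (subepithelial) markers in that library were 1919 CPM against 2850 to 3033 CPM in the colon. The part of cell makeup in the Postn result was not tested. The basement membrane chains Col4a5 and Col4a6, neighbours on the X chromosome, rose from 41.5, 86.9 and 34.7 to 291, 328 and 241 CPM and from 11.2, 25.4 and 10.8 to 124, 129 and 102 CPM (log2 2.39 ± 0.33 and 2.90 ± 0.38; adjusted p = 0.00288 and 0.00201). Col8a1, a short-chain network collagen, rose by 2.16 ± 0.31 (adjusted p = 0.00338). Ogn, a small leucine-rich proteoglycan, rose from 84.0, 122 and 89.7 to 517, 753 and 519 CPM, by 2.60 ± 0.30 (adjusted p = 0.00124), and Vcan, versican, by 1.83 ± 0.32 (0.00844). Fbn2, fibrillin 2, rose from 16.1, 24.5 and 10.5 to 64.8, 72.0 and 51.3 CPM (adjusted p = 0.00686). These 7 genes held in every leave-one-out fit.

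Other matrix calls were less firm. Fibronectin (Fn1) rose from 1871, 3370 and 1889 to 5940, 7803 and 7677 CPM, by 1.59 ± 0.29 (adjusted p = 0.0109; 0.0538 without colon replicate 3). The fibrillar collagen Col5a2 (1.31) and the laminin chains Lamc1 (0.98) and Lama4 (0.81) each lost their call in 5 of the 6 leave-one-out fits (up to 0.0989, 0.151 and 0.158, all without colon replicate 2), and Col5a3 (1.12) in those without small intestinal replicate 1 or colon replicate 2 (up to 0.0720). Elastin (Eln, 1.36) lost it without small intestinal replicate 1 or colon replicate 2 or 3 (up to 0.111), and Fbn1 (1.11) and Efemp1 (1.08) in 5 of 6 (up to 0.15 without colon replicate 3 and 0.137 without colon replicate 2). Thbs4, thrombospondin 4, rose from 1.44, 0.313 and 1.13 to 45.8, 18.5 and 32.4 CPM and lost its call without small intestinal replicate 1 or any 1 of the colon replicates (up to 0.0856). With only the 6 GFP-negative libraries in the fit, Fn1, Col5a2, Col5a3, Lamc1, Lama4, Eln, Fbn1 and Efemp1 were not called.

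The matrix genes that fell were fewer. Smoc2, a matricellular protein that is also expressed in crypt stem cells, fell from 87.9, 89.4 and 78.8 to 13.2, 14.8 and 8.11 CPM, by 2.82 ± 0.35 (adjusted p = 0.00135). Npnt, nephronectin, fell from 31.0, 121 and 25.1 to 4.84, 0.685 and 1.01 CPM (adjusted p = 0.00936; 0.0544 without colon replicate 3) and Col6a5 from 153, 339 and 188 to 80.5, 68.5 and 58.9 CPM (0.0423), lost without small intestinal replicate 2 or any 1 of the colon replicates (up to 0.188). Of 18 metalloproteinases and inhibitors 1 rose and 2 fell. Mmp10, stromelysin 2 (chromosome 9, 7502352 to 7510240, plus strand), fell from 152, 327 and 195 to 11, 6.97 and 3.93 CPM, by 4.95 ± 0.46 (adjusted p = 3.53e-04), and held in every leave-one-out fit. Adamts15 (-1.66) and the inhibitor Timp2 (0.91) lost their calls in 5 of 6 (up to 0.153 without colon replicate 2 and 0.185 without colon replicate 3).

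Axon guidance genes split evenly, 3 of 23 higher and 3 lower. The repulsive ligand Sema3a rose from 5.65, 3.97 and 0.965 to 55.2, 60.8 and 52.7 CPM, by 3.95 ± 0.47 (adjusted p = 0.00135), and Sema3c from 66.8, 95.4 and 78.3 to 250, 285 and 283 CPM, by 1.77 ± 0.29 (0.00647). The Slit receptor Robo1 rose from 49.5, 56.9 and 33.4 to 158, 164 and 150 CPM, by 1.75 ± 0.24 (0.00280). These 3 held in every leave-one-out fit. Its ligand Slit2 fell (-1.61), as did Sema3b (-1.63) and Efna5 (-1.36), and these lost their calls in 4, 2 and 5 such fits (up to 0.169, 0.0859 and 0.152, all without colon replicate 3).

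Immune signals of the stroma had calls in both directions. Of 18 chemokines 3 fell and none rose, although on the TPM scale 1 fell and 4 rose: Ccl25, the small intestinal homing chemokine, from 35.3, 18.7 and 47.1 to 6.01, 3.77 and 7.73 CPM (adjusted p = 0.0119; 0.0669 without colon replicate 2), Ccl11 (-1.32) and Cxcl16 (-1.59), the last pair each lost in 5 of the 6 leave-one-out fits (up to 0.188 and 0.147 without colon replicate 3). Of 15 cytokines 3 rose and 2 fell. Tnfsf13b, the B cell survival factor BAFF, went from 14.1, 39.3 and 31.5 to 82.6, 113 and 125 CPM and lost its call in 5 leave-one-out fits (up to 0.131 without colon replicate 3), and Tnfrsf11b, osteoprotegerin, rose by 1.69 (0.0137; 0.0605 without colon replicate 3). Il33 (-1.24) and Il6 (-1.20) fell and lost their calls in 3 and 5 such fits (up to 0.186 and 0.188 without colon replicate 3). No cytokine was called without colon replicate 3.

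Complement genes had 2 of 14 higher and 2 lower. C7, a subunit of the membrane attack complex, fell from 144, 200 and 160 to 46.1, 52.8 and 52.1 CPM, by 1.74 ± 0.20 (adjusted p = 0.00124), and Cd55, which accelerates the decay of convertases, rose from 96.1, 132 and 113 to 362, 499 and 592 CPM, by 2.09 ± 0.26 (0.00135). Both held in every leave-one-out fit. C6 fell from 10.7, 7.10 and 13.8 to 0.440, 0.228 and 0 CPM (lost without colon replicate 2 or 3, up to 0.0818), and C1s1 rose by 1.25 (lost in 5 fits, up to 0.105 without colon replicate 3). The higher count was 6 without small intestinal replicate 2 and 1 in the other leave-one-out fits. Of 15 interferon-induced genes 1 rose and 1 fell, the latter Isg15 (-1.26; lost in 4 fits, up to 0.153 without colon replicate 3), and none of 14 MHC genes was called. Of 15 prostaglandin genes 3 rose, Ptgs2 (cyclooxygenase 2, 1.64), Hpgd (1.43) and the receptor Ptger4 (0.89), all with adjusted p of 0.0458 or 0.0484 and each lost in 4 or 5 leave-one-out fits and with only the GFP-negative libraries.

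Marker lists of stromal types gave the following counts. All 16 general fibroblast markers had a positive difference (median 0.89), and 3 were called: Pi16 and Mfap5, of adventitial fibroblasts, and Ly6a, which encodes SCA-1 and rose from 61.8, 75.4 and 50.2 to 175, 141 and 171 CPM (adjusted p = 0.0113, held throughout). Without small intestinal replicate 2 the count was 10, and it was 1 without small intestinal replicate 1 or colon replicate 2 or 3. Pdgfra, at 469, 940 and 410 against 1250, 1203 and 1185 CPM, was not called (adjusted p = 0.102). Of 16 telocyte markers 5 rose, namely Bmp3, Bmp5, Bmp7 and Wnt5a described above and F3, tissue factor (1.25; lost without small intestinal replicate 3 or any 1 of the colon replicates, up to 0.0897); their median was 1.5 and the count ran from 2, without colon replicate 2 or 3, to 9, without small intestinal replicate 2. Summed telocyte markers were 2.30-fold higher in the colon, a sum that includes these 5 called genes and so is not separate from their calls. Of 14 trophocyte markers 3 rose (Fgf7, Osr1, Pi16) and 2 fell (Cd81, -0.98, and Il33). None of 12 smooth muscle markers was called, with Myh11 at 0.34 and Acta2 at 0.28, and none of 5 tested mesothelial markers. All 8 markers of interstitial cells of Cajal had a positive difference (median 1.04), and 1 was called, Thbs4, while Kit was at 0.43. Their sum was 345, 313 and 280 CPM in the small intestine and 625, 534 and 492 CPM in the colon.

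The vascular and glial markers that passed the test were lower in the colon, and most members of these lists were not called. Of 14 blood endothelial markers 3 fell (median -2.06), with Selp, P-selectin, at 693, 421 and 206 against 43.3, 11.1 and 7.09 CPM (log2 -4.43 ± 0.81, adjusted p = 0.0170), lost without colon replicate 2 or 3 (up to 0.0829). Vwf went from 550, 350 and 120 to 71.6, 24.3 and 21.2 CPM and Cd36 from 219, 152 and 80.1 to 55.6, 25.1 and 15.6 CPM; both lost their calls without small intestinal replicate 1 or colon replicate 2 or 3 (up to 0.167 and 0.136), and Vwf also without small intestinal replicate 2. The pan-endothelial Pecam1 (CD31), at 540, 362 and 172 against 162, 76.3 and 46.0 CPM, was not called (adjusted p = 0.0809); of 12 such markers 1 fell, Ets1 (-1.16; lost in 5 of 6, up to 0.205 without colon replicate 3). Of 11 lymphatic markers 2 fell, Reln (-2.53) and Clca3a1 (-3.29), each lost without small intestinal replicate 1 or colon replicate 2 or 3 (up to 0.0923 and 0.117). Of 9 pericyte markers 2 fell, Mcam (-1.82) and Cspg4 (-1.26), lost in 3 and 5 leave-one-out fits (up to 0.114 and 0.217 without colon replicate 3). Of 12 glial markers 2 fell, among them the cadherin Cdh19 (-3.18), lost in 4 such fits (up to 0.203 without colon replicate 2), and none of 9 neuronal markers was called. Of 6 leukocyte adhesion molecules 2 fell, Selp and Icam1, the latter from 753, 613 and 299 to 226, 191 and 218 CPM (lost in 5 of 6, up to 0.158 without colon replicate 2). No blood endothelial, lymphatic or pan-endothelial, pericyte or glial marker was called without colon replicate 2 or without colon replicate 3.

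Transcripts known from the epithelium were measured in these EPCAM-negative sorts, and their source was not tested. Of 22 small intestinal epithelial genes 11 fell and none rose (median -2.61), and of 16 colonic epithelial genes 10 rose and none fell (median 3.57). The lower count was 5, 4 and 4 without colon replicate 1, 2 and 3. Mttp, which loads lipid onto chylomicrons, fell from 161, 32.8 and 152 to 3.67, 4.11 and 4.31 CPM (adjusted p = 0.00124), Apoa1 from 191, 75.1 and 244 to 0.587, 0 and 4.05 CPM (0.0104), and lactase, Lct, from 44.7, 14.7 and 74.3 CPM to 3 counts over the colon, a ratio of 316 (95% counting interval 108 to 1537). In the other direction Car1, carbonic anhydrase 1, rose from 0.481, 1.46 and 0 to 171, 49.6 and 133 CPM, by 7.34 ± 0.93 (adjusted p = 0.00549), Lypd8, which protects the colonic mucus from flagellated bacteria, from 63.1, 20.4 and 66.7 to 1088, 449 and 669 CPM (0.00844), and Aqp4, a water channel, from 1.32, 0.731 and 0 to 128, 62.0 and 149 CPM (0.00387). These 6 held in every leave-one-out fit, but Lct, Car1 and Aqp4 were not called under limma-voom, nor Apoa1 with only the GFP-negative libraries. Within each group the library with the lowest pan-epithelial sum, replicate 2, was also the lowest for Mttp, Apoa1 and Lct in the small intestine and for Car1, Lypd8 and Aqp4 in the colon. Hoxb13, which the colonic epithelial list shares with the Hox list, was likewise lowest in colon replicate 2, at 1.83 CPM. The part of epithelial content in the other calls was not tested. All 16 pan-epithelial markers had positive differences and 1 was called, Phgr1 (2.45; lost in every leave-one-out fit but that without colon replicate 2, up to 0.0941).

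Several of the largest differences by rule of size belonged to genes outside the lists. Mgat4c, a glycosyltransferase, rose from 0.962, 0.313 and 1.61 to 83.9, 36.5 and 69.9 CPM, by 6.10 ± 0.63 (adjusted p = 7.27e-04), Tspan1 by 6.25 ± 0.81, Cyp2c55 by 5.93 ± 0.85, Tfcp2l1 by 4.89 ± 0.71 and Muc3 by 3.91 ± 0.65, and all 5 held in the leave-one-out fits. They were lowest in colon replicate 2, the colonic library with the lowest epithelial sum. Among the falls, P2rx1, an ATP-gated channel, went from 55.3, 48.8 and 27.7 to 3.52, 1.14 and 1.39 CPM, by 4.46 ± 0.61 (adjusted p = 0.00418), and Angptl1 from 28.5, 79.8 and 44.1 to 6.45, 2.40 and 2.15 CPM, by 3.81 ± 0.49 (0.00236), and both held throughout. Inpp5d and Csf2rb, signalling genes of blood cells, were highest in small intestinal replicate 3, at 94.9 and 156 CPM against 13.9 and 15.8 and 70.2 and 21.4 CPM in replicates 1 and 2. They lost their calls in 3 and 5 leave-one-out fits (up to 0.146 without colon replicate 3 and 0.151 without colon replicate 2).

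No member was called among 8 pan-leukocyte, 6 B and plasma cell, 6 T and innate lymphocyte and 10 myeloid markers, although every difference was negative. The B and plasma cell sum was 1448, 1210 and 75095 CPM in the small intestine and 755, 1377 and 2381 CPM in the colon. Its ratio turned to higher in the colon without small intestinal replicate 3. The T and innate lymphocyte sum was 10.5, 4.18 and 263 against 19.8, 9.02 and 13.3 CPM. The myeloid sum was 15.6, 14.1 and 862 against 25.1, 21.7 and 26.1 CPM, and the pan-leukocyte sum 42.6, 26.5 and 1541 against 16.1, 29.7 and 44.7 CPM. Each of these sums was thus far highest in small intestinal replicate 3. Of 12 cell cycle, 17 immediate early and stress, 12 mitochondrial mRNA and 5 nuclear RNA genes none was called, with medians of -0.24, -0.47, -0.57 and -0.09. The erythroid list had no tested member.

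The same contrast was made in the GFP-positive stroma of the same tissues, where 765 genes were called (4.57%), 461 higher (2.75%) and 304 lower in the colon (1.81%). Of the 706 GFP-negative calls, 165 (23.4%) were called in the same direction there, which is 21.6% of the GFP-positive calls, and 24 were called in the opposite direction. The difference of the region effects was tested directly as an interaction term: 345 genes were called (2.06%), among them 150 of the 706 (21.2%). This fit treats the 12 libraries as independent, although the labels name a GFP-negative and a GFP-positive library for each sorted tissue sample. With that sample as a block, an alternative chosen after seeing the data, 330 genes were called, 201 of them among the 345. Without the block, the count was 69 without colon replicate 2, 72 without colon replicate 3, 145 without small intestinal replicate 1, 223 without colon replicate 1 and 1044 without small intestinal replicate 2.

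Lrat, Cyp1b1, Mmp10, Smoc2 and C7 were lower in the colon in both populations: Lrat measured 202, 142 and 246 CPM in small intestinal and 0, 0.132 and 0.571 CPM in colonic GFP-positive cells, and Cyp1b1 526, 701 and 433 against 2.97, 5.94 and 5.37 CPM. Hoxa13 was likewise higher in both, at 3.74, 3.17 and 6.74 CPM in colonic GFP-positive cells, and Fgf9 rose by 2.94 there against 2.63 in GFP-negative cells, with no called difference between the effects (adjusted p = 0.869). Hoxb5 had a log2 difference of -3.58 in GFP-negative and -0.87 in GFP-positive cells, and the difference of these effects, -2.72 ± 0.55, was called (adjusted p = 0.0266; 0.0718 with each sorted tissue sample as a block), the only one among the 21 tested genes of Hox groups 1 to 8.

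Of the secreted signals, 5 of 9 BMP ligands, 3 of 10 Wnt ligands, 1 of 7 FGF ligands, 1 of 13 BMP antagonists and none of 7 R-spondins and receptors or 10 Wnt antagonists had a called difference of region effects, against 2.06% of all genes. Wnt5a rose by 1.96 in GFP-negative cells but was at 37.1, 24.4 and 53.5 against 18.4, 17.3 and 18.4 CPM in GFP-positive cells (-1.09), a difference of 3.05 ± 0.35 (adjusted p = 0.00247). Osr1 rose in GFP-negative cells and fell in GFP-positive ones, from 59.2, 41.8 and 97.3 to 25.7, 27.1 and 28.5 CPM, a difference of 4.17 ± 0.47 (0.00230). Robo1 (2.72 ± 0.34), Fbn2 (3.71 ± 0.44) and Wnt2 (6.80 ± 0.84) also had opposite directions in the populations, with adjusted p of 0.00311, 0.00286 and 0.00311. Fgf7 rose by 2.90 in GFP-negative cells against -0.45 in GFP-positive ones (34.9, 22.8 and 35.8 against 25.2, 20.7 and 22.4 CPM), a difference of 3.35 ± 0.44 (0.00408). Bmp2, Bmp3, Bmp4, Bmp5 and Bmp7 had called differences from 1.69 to 4.75, with GFP-positive effects from -1.79 to 0.03, whereas that of Bmp6 was not called (0.74, adjusted p = 0.456). With the block, those of Bmp2, Bmp4 and Bmp5 were not called (adjusted p = 0.0746, 0.0660 and 0.0825), and those of Bmp3, Bmp7, Wnt5a, Osr1, Robo1, Fbn2, Wnt2 and Fgf7 were. The general fibroblast markers had a median region effect of 0.89 in GFP-negative and -0.62 in GFP-positive cells. Summed lymphatic endothelial markers were at 11441, 15273 and 4453 CPM in small intestinal and 19399, 21393 and 18282 CPM in colonic GFP-positive libraries. In GFP-negative libraries they were at 821, 530 and 315 against 446, 379 and 285 CPM. The part of fibroblast and lymphatic content in these differences was not tested.

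**Figure D5:**
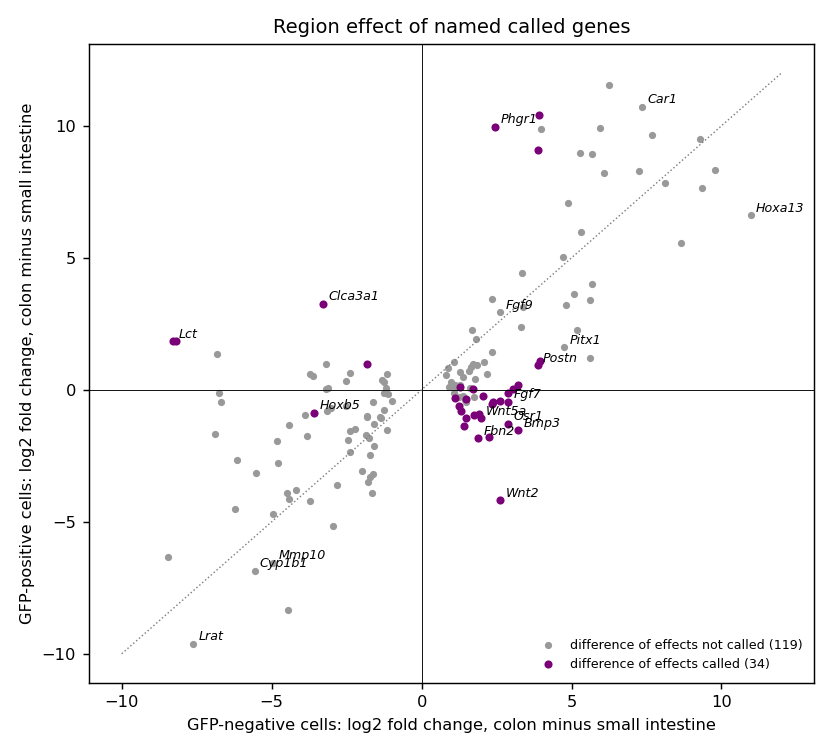
Region effect (log2 fold change, colon minus small intestine) of the 153 named called genes in GFP-negative cells (horizontal) and GFP-positive cells (vertical), with the dotted line marking equal effects. Purple points are the 34 genes whose effects differed by the interaction test; many lie at the lower right, with a positive effect in GFP-negative and a negative one in GFP-positive cells, among them Wnt5a, Osr1, Bmp3, Fbn2 and Wnt2.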

How the data were processed

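The deposited tables of the series each hold 32052 genes in the 6 GFP-negative and 6 GFP-positive libraries. Per the submitters' processing notes, the authors' tools include Salmon (1.1.0) and R (3.6.1), and the build is mm10; the annotation, strand setting and any rounding are not given in the sources used here. The deposited estimated counts (expected counts) are whole numbers throughout and were used as such. The second deposited table holds log2(TPM + 1) values, made by the authors, and served as an alternative scale. Identifiers were matched to GENCODE M21 (GRCm38) for 32001 genes, and 51 had no match; symbols carried by more than 1 identifier were left out of the lists.

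Counts were tested with edgeR 4.0.16 in R 4.3.3: 1 quasi-likelihood model (robust) with a mean per group over all 12 libraries, which share an estimate of the spread, TMM factors, filterByExpr at a minimum count of 10, Benjamini-Hochberg adjustment over 16757 genes, threshold 0.05. SE is the log2 fold change divided by the root of F. Bounds use a floor of 3 counts over a group; floors and 95% exact intervals cover counting error only. The fits were tested on simulated data. Alternatives were RLE and upper quartile factors, DESeq2 1.42.0, limma-voom (limma 3.58.1), no filter, a minimum count of 30, the 6 GFP-negative libraries alone, a replicate block, a block per sorted tissue sample for the interaction (chosen after seeing the data), log2(TPM + 1) with limma, protein-coding genes alone and leaving out each GFP-negative library.

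The members, the 55 gene lists (54 with a tested member) and the rules were chosen with earlier results of these data known. Named genes were the 15 largest called changes in each direction without overlap (established symbols, average log2 CPM from 3 upward); the Hox and mesenchymal transcription factor lists; up to 6 called members of each other list; the 6 with the smallest interaction p; and Rspo3. List counts are given as description, and genes named beyond this rule were chosen after their values were seen. Some called genes that the rule names are counted in their lists but not reported here by name. Samples sorted on CD31 are not analysed here. Promoter sequences are from RefSeq (GRCm38.p6).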

Additional observations from a re-analysis of the deposited data

Results flagged for a closer look

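The region effect, colon minus small intestine, differed between GFP-negative and GFP-positive stroma by the edgeR interaction test for 34 of the named called genes. The values below are the GFP-negative minus the GFP-positive effect on the log2 scale. With each sorted tissue sample as a block, 23 of the 34 were called and all 34 had the same sign; those not called were Bmp2, Bmp4, Bmp5, C1s1, Col5a2, Col5a3, Hgf, Hoxb5, Phgr1, Twsg1 and Wnt5b.

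Among secreted signals and their modulators the differences were 6.80 for Wnt2, 3.05 for Wnt5a, 3.02 for Wnt5b, 4.75 for Bmp3, 4.04 for Bmp7, 2.89 for Bmp5, 2.27 for Bmp2, 1.69 for Bmp4, 1.19 for Twsg1, 3.35 for Fgf7, 1.83 for Hgf and 2.82 for Tnfsf13b, all higher in the colon in GFP-negative cells. Smad9, a SMAD downstream of BMP receptors, had 2.53. Transcription factors with a difference were Osr1 at 4.17 and Hoxb5 at -2.72.

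Matrix genes with a difference were Fbn2 at 3.71, Col4a6 at 3.03, Ogn at 3.02, Postn at 2.94, Col4a5 at 2.87, Col5a2 at 2.10 and Col5a3 at 1.45. Guidance, retinoid, prostaglandin and complement genes were Sema3a at 2.84, Robo1 at 2.72, Rbp4 at 3.05, Hpgd at 2.81 and C1s1 at 1.85. Vascular genes with a lower region effect in GFP-negative cells were Clca3a1 at -6.55 and Mcam at -2.80.

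Epithelial genes with a difference were Lct at -10.13, Fabp1 at -10.03, Phgr1 at -7.51, Muc3 at -6.51 and Lypd8 at -5.22. The pan-epithelial list had a median region effect of 1.72 in GFP-negative and 6.72 in GFP-positive cells. Its summed level in the small intestinal GFP-positive libraries was low, at 23.0, 21.9 and 21.3 CPM. The sizes of these epithelial differences are given without bounds or counting intervals. Epithelial content was not separated from the stromal effect, and its part in these differences was not tested.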

How the results depend on the processing

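The 706 called genes (369 higher, 337 lower in the colon) became 1661 with DESeq2 (763 higher, 898 lower), which included all 706, 406 with only the 6 GFP-negative libraries (218 and 188) and 1509 on the log2(TPM + 1) scale (1318 and 191). Leaving out 1 GFP-negative library gave 187 to 1229 calls, 122 to 690 higher and 65 to 539 lower. Other factors, filters, voom and protein-coding genes alone gave 674 to 822, with 538 (voom) to 692 (RLE) of them among the 706. The called differences of region effects, 345, ran from 69 to 1044 without a library. Same-numbered replicates of the regions correlated at 0.0976, 0.0281 and 0.223 in their deviations from the group means, against -0.158 to 0.0926 for other pairs. The deposited names of replicate 3 share a numbered prefix between regions. Small intestinal replicates 1 and 2 and colon replicate 1 carry no such prefix, so their names do not show whether they share a source. With a replicate block 944 genes were called (456 higher, 488 lower, 658 of them among the 706) and the interaction count was 535. With a block per sorted tissue sample, whose GFP-negative and GFP-positive libraries correlated at 0.00933 to 0.323, it was 330. Of 153 named called genes none turned direction, and 59 lost the call with the GFP-negative libraries alone, 38 on the TPM scale, 28 with voom, 28 with no filter, 7 with the block and 56 kept it in all fits without a library. The log2 ratio of summed fibroblast markers, 0.80, ranged from 0.56 to 1.35 without a library (1.35 without small intestinal replicate 2); that of B and plasma cell markers, -4.11, ranged from -4.67 to 0.18, the last without small intestinal replicate 3. At this depth, genes near 0 CPM are limited by counting.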
